A study of Mus musculus with 12 samples.

Results

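The 39 Hox genes of the HoxA, HoxB, HoxC and HoxD clusters were followed through 12 RNA-seq libraries of mouse embryonic stem cells. They were taken by symbol, as every gene named Hox with a cluster letter from a to d and a number, and are 39 of the 53379 genes in the files: 11 in HoxA, 10 in HoxB, 9 in HoxC and 9 in HoxD. Hox genes encode transcription factors that bind DNA through a homeodomain and give cells their position along the head-to-tail axis of the embryo. The number after the letter is the paralog number: genes with the same number in different clusters descend from one ancestral gene, low numbers lie at the 3' end of a cluster and pattern the hindbrain and neck, and high numbers lie at the 5' end and pattern the trunk, limbs and tail. In embryonic stem cells the clusters are known to be held silent by Polycomb complexes, and retinoic acid is a classical inducer that acts through receptors bound near the 3' genes. Paralog numbers 1 to 3 are called anterior here, 4 to 8 central and 9 to 13 posterior.

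All libraries came from ZHBTc4 cells (strain 129/Ola in the labels), in which the pluripotency factor Oct4 is made only from a transgene that can be shut off with doxycycline (DOX). The 6 groups were wild type (WT) and Phf6 knockout (KO) cells, each untreated, given DOX for 2 days, or given all-trans retinoic acid (RA) for 4 days in medium without the cytokine LIF, with 2 libraries per group. The DOX dose is 0.5 µg/ml in the sample characteristics, while the protocol text gives the same number per ml in mg. Cells were first grown on embryonic fibroblast feeders and then without feeders on gelatin. The labels do not say how many KO lines were used, which part of Phf6 was deleted, or whether the 2 libraries of a group were separate cultures, so p-values measure the spread between these libraries, which may be technical. RNA of the RA libraries was purified with a kit that the labels do not give for the other libraries, so agent, time, medium and RNA preparation cannot be told apart in any comparison with RA.

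Libraries held 15799517 to 21441996 counts, and Phf6 stood at 9.63 to 17.0 TPM (a read share corrected for transcript length) in WT and 1.34 to 2.82 TPM in KO libraries. The pluripotent stem cell markers (6 of 6 genes with reads) summed to 7133 to 8429 TPM in untreated cells. Of 10 fibroblast markers, the sum was 20.6 to 51.7 TPM over all libraries, with Lum, which encodes the matrix protein lumican, without a read in both untreated KO and both WT DOX libraries. Most of this sum came from 2 of the markers, Thy1 and Prrx2, in every group. Genes of chromosome 1 had a median log2 change of -0.48 to -0.47 between KO and WT in the 3 conditions, while those of chromosomes 2, 6, 11 and 15, which hold the Hox clusters, had medians from 0.007 to 0.057.

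On the mouse genome build GRCm38, with positions from GENCODE release M21, HoxA lies on chromosome 6 (52155590 to 52260880, minus strand), HoxB on chromosome 11 (96194316 to 96368256, plus strand), HoxC on chromosome 15 (102921103 to 103036852, plus strand) and HoxD on chromosome 2 (74668310 to 74765142, plus strand). A homeobox of 180 bases, the stretch that encodes the homeodomain, was found in all 39 genes. Among the 42 pairs of genes with the same paralog number, the homeoboxes had 67.2% to 93.9% of bases in common (median 80.6%), against 46.1% to 88.9% (median 60.6%) for the 699 pairs with different numbers. Those of Hoxb9 and Hoxc9 are shown because these paralogs moved in opposite directions between KO and WT cells. The sequences are the coding strand in GRCm38, each within the last coding exon of its gene, and capitals mark the bases that encode the most conserved part of the DNA recognition helix.
Hoxb9, chr11:96274659-96274838, plus strand: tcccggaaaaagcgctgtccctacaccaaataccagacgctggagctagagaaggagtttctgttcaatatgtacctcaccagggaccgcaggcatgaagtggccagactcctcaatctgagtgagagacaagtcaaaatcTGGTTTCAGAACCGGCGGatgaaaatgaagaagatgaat
Hoxc9, chr15:102983930-102984109, plus strand: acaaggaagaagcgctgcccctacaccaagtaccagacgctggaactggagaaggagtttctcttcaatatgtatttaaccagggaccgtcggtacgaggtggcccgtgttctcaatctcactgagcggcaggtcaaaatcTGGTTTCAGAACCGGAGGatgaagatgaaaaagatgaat
Any pair of the 4 homeoboxes of paralog group 9 had 81.7% to 84.4% of its bases in common.

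Levels below are the deposited TPM, which are per transcript length and so can be compared between genes. Changes are log2 changes ± SE from edgeR's quasi-likelihood test on the counts, where SE is the change divided by the square root of F, and a gene is called at a Benjamini-Hochberg adjusted p under 0.05 over 17884 genes. TPM lack the scaling between libraries used in that test, and rises with RA can be larger in TPM than in log2 changes. In WT, the Oct4 gene Pou5f1 was at 1052 TPM untreated and 1521 TPM with RA, with a log2 change of 0.007 ± 0.086. Of the 39 members, 38 passed the filter on low counts, and Hoxd12, a posterior limb gene with 0 to 3 counts per library, did not. Most passed through the RA libraries: with only the untreated and DOX libraries of a line in the filter, 14 members passed in WT and 10 in KO cells. Counts out of 38 thus include many genes close to 0 outside RA.

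Untreated cells had little Hox RNA. The 39 genes summed to 9.92 and 11.28 TPM in the WT libraries and 9.69 and 9.42 TPM in the KO libraries. In each line 3 genes had a mean of at least 1 TPM, among them Hoxb9 and Hoxc13. Hoxb9, a patterning gene of the ribs and trunk, was at 2.74 and 3.03 TPM in WT and 4.13 and 3.67 TPM in KO. Hoxc13, the last gene of HoxC, known for its part in hair and nail formation, was at 1.01 and 1.3 TPM in WT and 0.86 and 1.27 TPM in KO. Hoxb9 lay above Hoxc13 in each of the 4 untreated libraries. No read was found for 10 members in the WT libraries and 13 in the KO libraries. A count of 0 in a library allows up to 3 counts, or 0.14 to 0.19 CPM (counts scaled to library size), by counting error alone.

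**Figure D1:**
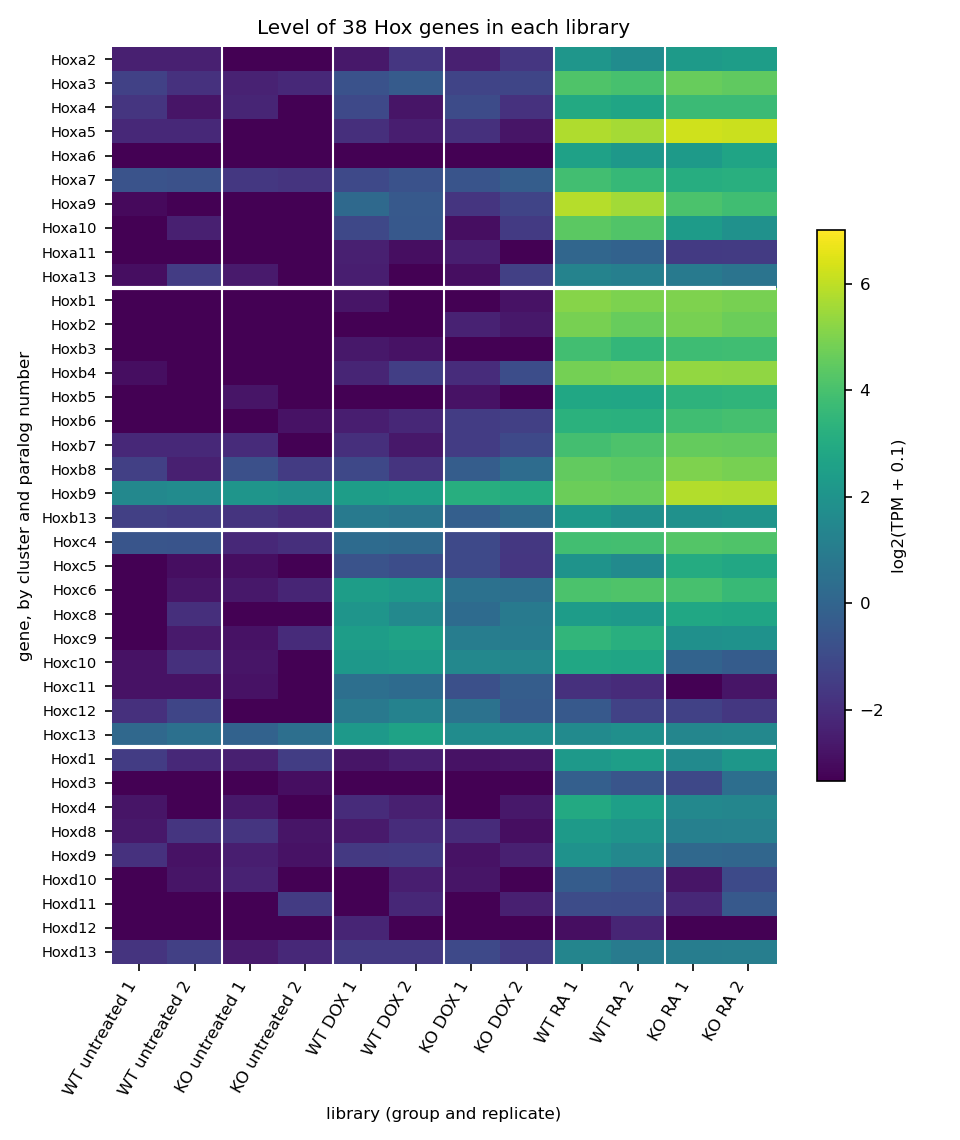
Level of 38 Hox genes (rows, by cluster and paralog number) in each of the 12 libraries (columns, by group and replicate), as log2(TPM + 0.1) on a colour scale. The RA libraries are brightest in HoxA and HoxB, the DOX libraries stand out from the untreated ones mainly in HoxC, and Hoxb9 is visible in every library.

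With RA, nearly the whole gene family rose. In WT cells 36 of the 38 tested members were called higher, where 41.0% of all tested genes were called higher and 32.9% lower. In KO cells 35 of 38 were called higher, where 40.9% of all tested genes were higher and 34.6% lower. None was called lower in either line, and the number lower at an unadjusted p under 0.05 was also 0 by edgeR, as were the numbers called lower by DESeq2 and by limma on log2(TPM + 1). Members without an untreated read (10 of 39 in WT and 13 in KO) could not fall, and most others were near 0. Most members also passed the filter only through the RA libraries. The absence of lower calls is thus no separate evidence of a rise. The members not called were Hoxc11 and Hoxc12 in WT and Hoxc11, Hoxd10 and Hoxd11 in KO. The median fitted log2 change was 5.69 in WT and 5.72 in KO cells, beside 0.12 and 0.10 over all genes tested. With the members that had no untreated read set to their lower bound (9 in WT, 11 in KO, and 1 more in KO left out), it was 5.12 and 4.82. The number of genes with a mean of at least 10 TPM went from 0 in both untreated groups to 15 in WT and 16 in KO cells.

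HoxA reached the highest summed level in WT cells with RA, at 282.9 and 251.8 TPM in WT libraries and 256.8 and 247.7 TPM in KO libraries, after 2.86 to 4.35 TPM in the 4 untreated libraries. The central gene Hoxa5, which patterns the neck and lung, reached 54.3 and 48.9 TPM in WT after 0.13 TPM in each untreated WT library. Hoxa9, a posterior gene known from blood progenitors, reached 57.8 and 46.9 TPM in WT after 0.02 and 0 TPM. The values of Hoxa9 and Hoxa5 overlapped, although their positions in the cluster differ. In the 8 libraries without RA, Hoxa5 stayed between 0 and 0.17 TPM and Hoxa9 between 0 and 1.04 TPM.

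The other HoxA genes spanned a wide range with RA. Hoxa2, which patterns the hindbrain and the jaw and ear skeleton, was at 4.15 and 3.15 TPM in WT and 4.85 and 5.26 TPM in KO, and at 0 to 0.21 TPM in all libraries without RA. Hoxa3, needed for thymus and parathyroid, was at 17.7 and 15.8 TPM in WT and stood between 0.1 and 0.69 TPM without RA. Hoxa4 was at 7.68 and 6.61 TPM in WT, and between 0 and 0.42 TPM without RA. These 3 genes were each lower than Hoxa5. Hoxa6 was at 5.82 and 4.39 TPM in WT and 4.78 and 6.39 TPM in KO, with no read in any of the 8 libraries without RA, so its rise was at least 11.1-fold in WT and at least 11.4-fold in KO. Hoxa7 was at 14.65 and 11.96 TPM in WT, and between 0.19 and 0.72 TPM without RA. Hoxa10, a lumbar and uterine patterning gene, was at 20.9 and 18.1 TPM in WT and at 0 to 0.62 TPM without RA. The end of the cluster was lowest: Hoxa11, a limb and kidney gene, reached 0.97 and 0.84 TPM in WT, and Hoxa13, a digit and genital tract gene, reached 2.33 and 2.07 TPM in WT and 1.76 and 1.45 TPM in KO after 0 to 0.29 TPM without RA.

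HoxB was at 191.6 and 179.2 TPM in WT libraries and 252.9 and 244.35 TPM in KO libraries with RA. It was below HoxA in WT, while in KO the libraries of the 2 clusters overlapped. Its 3 anterior genes had no read in any untreated library. Hoxb1, a hindbrain gene and known direct target of retinoic acid receptors, reached 34.9 and 31.0 TPM in WT and 31.9 and 29.0 TPM in KO. Against the floor of 3 counts per library this was at least 186-fold higher in WT and at least 160-fold higher in KO. Hoxb2, also of the hindbrain, reached 29.1 and 24.1 TPM in WT and 29.2 and 25.7 TPM in KO, at least 126-fold and 122-fold higher. Hoxb3 reached 14.6 and 11.3 TPM in WT and 13.66 and 13.98 TPM in KO. In DOX the 3 genes were at 0 to 0.1 TPM.

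Of the central HoxB genes, Hoxb4, a gene used to expand blood stem cells, was at 28.4 and 30.7 TPM in WT with RA and at 0 to 0.45 TPM without. Hoxb8, a gene of the spinal cord and of myeloid progenitors, was at 23.1 and 21.1 TPM in WT with RA and at 0.09 to 1.16 TPM without. Hoxb7 was at 15.2 and 17.4 TPM in WT with RA and at 0 to 0.38 TPM without. Hoxb5, a gene of the gut nervous system, was at 6.91 and 6.83 TPM in WT with RA and at 0 to 0.05 TPM without, and it was the lowest of HoxB paralogs 1 to 9. Hoxb6 was at 9.55 and 9.40 TPM in WT with RA and at 0 to 0.29 TPM without. Hoxb9 rose to 25.3 and 23.9 TPM in WT, and because it was already present in untreated WT cells its log2 change was 2.68 ± 0.11 (adjusted p = 1.1e-18), the smallest of HoxB. Hoxb13, a tail-end and prostate gene far from the rest of the cluster, was at 4.56 and 3.50 TPM in WT and 3.65 and 3.95 TPM in KO with RA.

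HoxD was the lowest cluster, with 25.1 and 21.2 TPM in WT and 11.4 and 14.4 TPM in KO libraries with RA. Hoxd4 was at 7.59 and 5.64 TPM in WT with RA and at 0 to 0.14 TPM without. Hoxd1, known from pain-sensing neurons, was at 4.53 and 5.35 TPM in WT and 3 and 4.32 TPM in KO with RA, and at 0.04 to 0.27 TPM without. Hoxd8 was at 4.83 and 3.97 TPM in WT with RA and at 0.03 to 0.20 TPM without. Hoxd9, a hindlimb gene, was at 3.70 and 2.74 TPM in WT with RA and at 0.04 to 0.24 TPM without. Hoxd13, the digit gene at the end of the cluster, was at 2.5 and 1.88 TPM in WT and 1.97 and 2.06 TPM in KO with RA, and at 0.07 to 0.39 TPM without. Hoxd3, Hoxd10, Hoxd11 and Hoxd12 stayed at 0 to 1.23 TPM in all 12 libraries. The libraries of Hoxd4, Hoxd1 and Hoxd8 were close to one another, and the 5 posterior genes of the cluster together summed to 7.37 and 5.67 TPM in WT against 17.7 and 15.5 TPM for the 4 genes up to Hoxd8. Exons of Hoxd3 and Hoxd4 share 62.3% and 52.3% of their bases on the same strand with each other and with the gene model Gm28230, so the division of reads between them is uncertain.

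**Figure D2:**
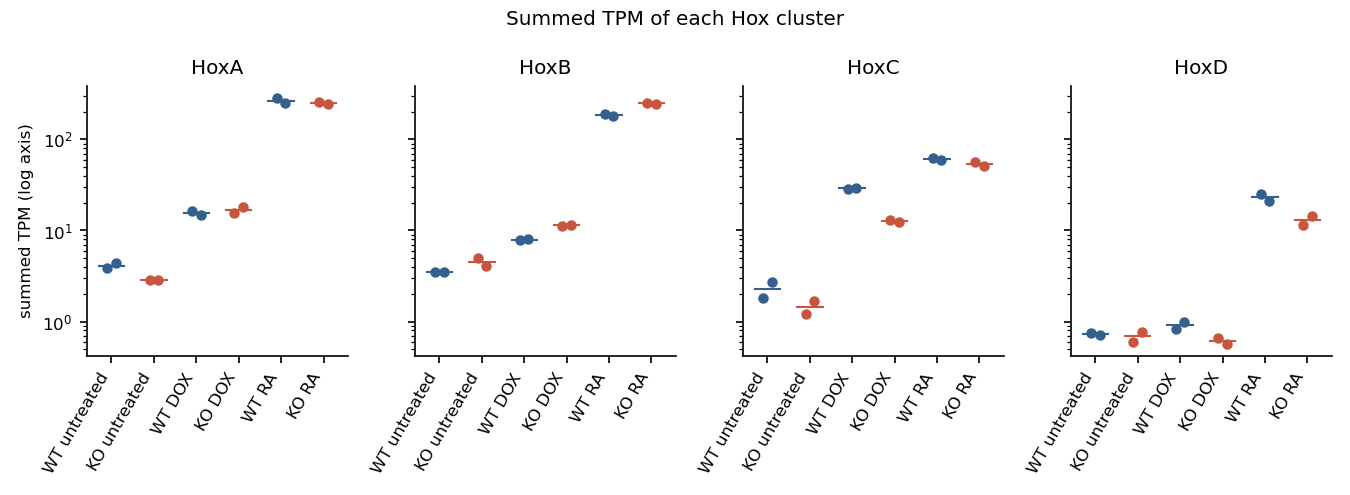
Summed TPM of the genes of each Hox cluster in each library (points) with the group mean (lines), on a log axis, WT in blue and KO in red. RA raised all 4 clusters, DOX raised HoxC most (to 28.4 and 29.5 TPM in WT), and with DOX the KO libraries lay below the WT libraries in HoxC and HoxD and above them in HoxB.

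DOX, which removes Oct4 and is known to turn these cells toward trophectoderm, raised fewer Hox genes and to lower levels than RA. In WT cells 16 of 38 members were called higher, where 31.8% of all tested genes were higher and 31.3% lower. In KO cells 21 of 38 were called higher, where 31.2% of all tested genes were higher and 31.2% lower. None was called lower in either line. At an unadjusted p under 0.05 edgeR had 0 lower in WT and 1 in KO, and DESeq2 and limma called 0 lower in both. As with RA, members without an untreated read could not fall, so these zeros say little. The median fitted log2 change was 1.45 in WT and 2.09 in KO cells, beside 0 and -0.00021 over all genes tested. With unread genes at their bound or, where no fold could be given, left out (9 in WT, 8 in KO), it was 1.17 and 1.40. In KO cells the count fell to 10 of the 10 members tested when only the 2 groups compared were filtered and fitted.

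In WT cells DOX raised 9 of 9 genes of HoxC, against 4 of 11 in HoxA, 3 of 10 in HoxB and 0 of 8 in HoxD. HoxC summed to 1.82 and 2.71 TPM in untreated WT libraries and 28.4 and 29.5 TPM with DOX, and made up 54.1% of the Hox TPM in WT DOX libraries against 11.4% in WT RA libraries. In KO cells 8 of 9 genes were called higher in HoxC, 7 of 11 in HoxA, 5 of 10 in HoxB and 1 of 8 in HoxD, and HoxC made up 30.6% and HoxA 40.6% of the Hox TPM in KO DOX libraries. Most of the HoxA calls in KO were lost under at least 1 other setting. Among these, Hoxa2, Hoxa5 and Hoxa10 rested on 0 untreated counts and 5 to 6 counts with DOX over both libraries. In WT cells Hoxc9, a thoracic patterning gene, went from 0 and 0.07 TPM to 5.25 and 6 TPM, on 2 and 326 counts, a ratio of 156 (95% counting interval 42.9 to 1295). Hoxc6, also thoracic, went from 0 and 0.05 TPM to 5.21 and 4.74 TPM, a ratio of 158 on 1 and 165 counts (28.0 to 6283). Hoxc10, a lumbar gene active in hindlimb motor neurons, went from 0.04 and 0.17 TPM to 4.48 and 5.03 TPM, with a log2 change of 5.31 ± 0.36 (adjusted p = 3.1e-13). All 3 lay in the centre of the cluster and were within 4.48 to 6 TPM, so their order was not resolved by the spread of 2 libraries.

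The other HoxC genes rose less. Hoxc8 went from 0 and 0.16 TPM in untreated WT to 4.06 and 2.81 TPM with DOX, a log2 change of 5.13 ± 0.48. Hoxc13 went from 1.01 and 1.3 TPM to 4.73 and 6.03 TPM, a log2 change of 2.10 ± 0.20 from a higher starting level. Hoxc12 went from 0.17 and 0.35 TPM to 1.70 and 2.26 TPM. Hoxc11 went from 0.04 TPM in both to 1.27 and 1.12 TPM. The 2 genes at the 3' end were lowest or changed least: Hoxc5 went from 0 and 0.03 TPM to 0.52 and 0.44 TPM, and Hoxc4 from 0.56 and 0.54 TPM to 1.13 and 1.04 TPM (log2 change 0.88 ± 0.30, adjusted p = 0.014). The call of Hoxc4 was lost by DESeq2 and when either untreated WT replicate or WT DOX replicate 1 was left out. In untreated KO libraries the HoxC genes other than Hoxc4 and Hoxc13 stood at 0 to 0.14 TPM.

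Outside HoxC, DOX raised Hoxb9 in WT to 5.32 and 5.75 TPM, a log2 change of 0.83 ± 0.13. Hoxb13 rose in WT from 0.29 and 0.26 TPM to 1.78 and 1.54 TPM, a log2 change of 2.46 ± 0.34. Hoxa9 and Hoxa10 rose to 0.37 to 1.04 TPM in WT. In KO cells Hoxb9 rose to 8.87 and 8.06 TPM. Hoxb13 rose in KO from 0.19 and 0.15 TPM to 0.77 and 1.07 TPM. Of the KO calls, 12 of 21 held under every other setting tried, against 13 of 16 in WT.

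RA and DOX also differed in the levels that HoxC genes reached, with Hoxc11 to Hoxc13 at its 5' end higher with DOX. RA libraries were higher than DOX libraries for 32 of 38 members in WT (background 37.4% higher, 33.2% lower) and for 32 of 38 in KO cells (37.9% and 33.3%). Most members passed the filter only through the RA libraries, and many were close to 0 with DOX. Such members could hardly be called lower with RA, so these numbers are no separate evidence of a difference. Lower with RA were 3 members in WT, namely Hoxc11, Hoxc12 and Hoxc13, and 4 in KO, these 3 and Hoxc10. The WT calls held under every setting tried. In KO those of Hoxc12 and Hoxc13 were lost under at least 1 setting, and DESeq2 called 2 lower. Hoxc11 was at 0.17 and 0.14 TPM with RA in WT, against 1.27 and 1.12 TPM with DOX, a log2 change of -3.29 ± 0.54 (adjusted p = 4.2e-06). Hoxc12 was at 0.64 and 0.31 TPM with RA in WT (log2 change -2.44 ± 0.54), and Hoxc13 at 2.93 and 3.45 TPM (log2 change -1.17 ± 0.17). For these 3 genes the WT DOX and WT RA libraries did not overlap. Hoxc4, at the 3' end, moved the other way and reached 14.6 and 14.9 TPM with RA in WT, a log2 change over DOX of 3.37 ± 0.17. Hoxc6 reached 16.9 and 17.9 TPM with RA in WT. Hoxc8 and Hoxc10 did not pass the test between RA and DOX in WT, at 5.19 and 4.67 TPM and at 6.93 and 6.55 TPM with RA, and log2 changes of 0.13 ± 0.23 and 0.10 ± 0.18. DOX cells were treated for 2 days and RA cells for 4 days.

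**Figure D3:**
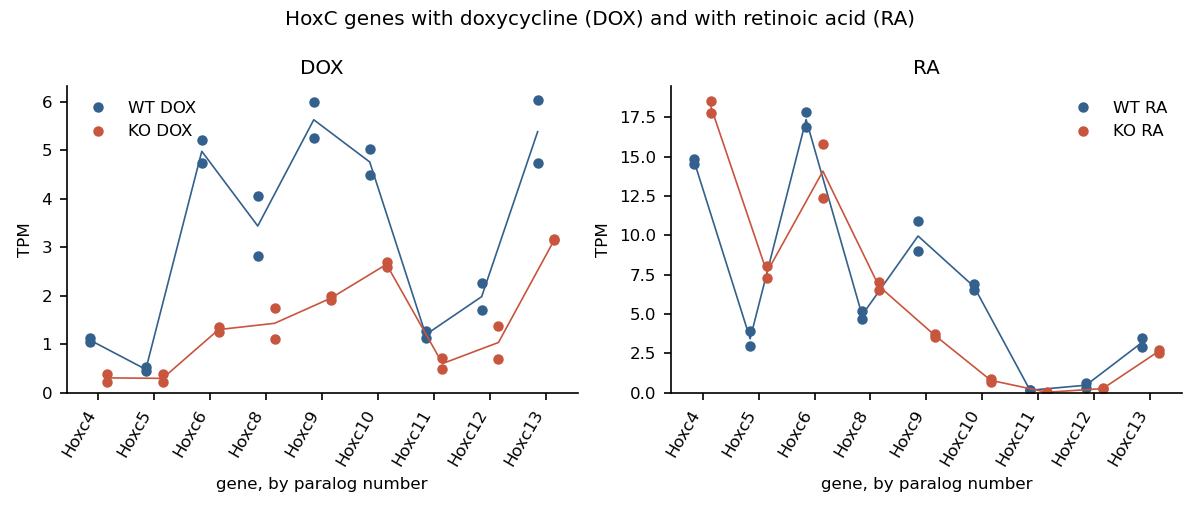
TPM of the 9 HoxC genes by paralog number with DOX (left) and RA (right), with a point for each library and lines through the group means, WT in blue and KO in red. With DOX the WT libraries lie above the KO libraries for all 9 genes. With RA the KO libraries lie above WT at Hoxc4, Hoxc5 and Hoxc8, and below at Hoxc6 and from Hoxc9 to Hoxc13. Of these RA differences only those of Hoxc5, Hoxc9 and Hoxc10 were called.

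In untreated cells most Hox genes had too few reads for a comparison of KO with WT, and only 4 members passed the filter with these 2 groups alone. Of 38 members 1 was called higher (15.2% of all tested genes were higher) and 3 lower (14.9%), and the median log2 change was -0.24 beside 0.02 over all genes. Hoxc4 was lower in KO, at 0.13 and 0.16 TPM against 0.56 and 0.54 TPM (log2 change -1.87 ± 0.47, adjusted p = 0.0034). Hoxa5 and Hoxc12 were called lower on 0 counts in KO libraries, with WT at 0.13 TPM in both and at 0.17 and 0.35 TPM. Hoxb9 was called higher, with a log2 change of 0.40 ± 0.14 (adjusted p = 0.036). These calls rest on low counts: only that of Hoxc4 held under every setting, and the total fell from 4 to 2 by DESeq2, 2 with effective lengths in the fit, 2 by limma on log2(TPM + 1) and 1 with only these 2 groups in the fit. Leaving out untreated WT replicate 2 or untreated KO replicate 1 left 1 call, and leaving out untreated KO replicate 2 left 2.

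With DOX, HoxC genes were lower in KO than in WT cells. Over all 4 clusters 10 of 38 members were called lower (background 19.1%) and 2 higher (17.9%), and 6 of the 10 lower genes were in HoxC, which has 9 genes. Without KO DOX replicate 1 the number lower was 6. The calls of Hoxc4, Hoxc6, Hoxc9 and Hoxc13 held under every setting tried, those of Hoxc8 and Hoxc10 were lost by limma on log2(TPM + 0.1), and the other 4 were lost under 3 or more settings. Hoxc6 was at 1.35 and 1.25 TPM in KO DOX libraries against 5.21 and 4.74 TPM in WT, a log2 change of -2.01 ± 0.23 (adjusted p = 5.7e-08). Hoxc9 was at 1.99 and 1.90 TPM in KO against 5.25 and 6 TPM, a log2 change of -1.58 ± 0.18 (adjusted p = 6.2e-08). Neither gene's libraries overlapped between the lines. Hoxc8 was at 1.11 and 1.75 TPM in KO (log2 change -1.296 ± 0.27), and Hoxc10 at 2.69 and 2.60 TPM (-0.89 ± 0.20). Hoxc13 was at 3.14 and 3.17 TPM in KO (-0.82 ± 0.17), and Hoxc4 at 0.39 and 0.22 TPM (-1.78 ± 0.34). The 3 remaining HoxC genes, which did not pass, had negative changes as well: Hoxc5 at 0.38 and 0.21 TPM, Hoxc11 at 0.48 and 0.72 TPM and Hoxc12 at 1.38 and 0.69 TPM in KO. The HoxC sum was 12.9 and 12.5 TPM in KO against 28.4 and 29.5 TPM in WT, a ratio of 0.44. An exact permutation test of 2 libraries against 2 cannot go below p = 0.333, so sums are given without a test.

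Outside HoxC, Hoxa9 and Hoxa10 were called lower in KO with DOX on 13 and 5 counts over both libraries, against 31 and 20 in WT, and Hoxa3 and Hoxb13 were also called lower. Hoxb9 was higher in KO, at 8.87 and 8.06 TPM against 5.32 and 5.75 TPM (log2 change 0.59 ± 0.11, adjusted p = 7.8e-05). Hoxb8 was higher, at 0.72 and 1.16 TPM against 0.37 and 0.19 TPM. In the same libraries the 6 trophectoderm markers summed to 1016 to 1110 TPM in WT and 698 to 719 TPM in KO, all 6 with reads in both lines, and the 10 fibroblast markers to 20.6 to 23.2 TPM in WT and 39.9 to 41.7 TPM in KO. Most of the trophectoderm sum was the keratin gene Krt8, at 844 and 924 TPM in WT and 648 and 620 TPM in KO. Of 5 tested trophectoderm markers, 4 were called lower in KO and 0 higher, beside 19.1% and 17.9% of all tested genes. Most of the fibroblast sum was Thy1 and Prrx2. Of 9 tested fibroblast markers, 3 were called higher in KO and 0 lower, beside 17.9% and 19.1% of all tested genes. The part of these differences in the Hox changes was not tested, and in bulk RNA fewer cells of a type cannot be told apart from less RNA per cell.

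With RA, the difference between KO and WT changed sign along HoxA and differed between clusters. Called higher in KO were 10 of 38 members (background 18.8%) and lower 9 of 38 (20.0%), with a median log2 change of -0.16 beside -0.0054 over all genes. By position, the anterior genes had 1 higher and 0 lower of 8, the central genes 8 higher and 3 lower of 15, and the posterior genes 1 higher and 6 lower of 15. By cluster, HoxA had 3 higher and 4 lower of 11, HoxB 6 higher and 0 lower of 10, HoxC 1 higher and 2 lower of 9, and HoxD 0 higher and 3 lower of 8. At an unadjusted p under 0.05, edgeR had 0 lower genes in HoxB and among the anterior genes and 0 higher genes in HoxD, and DESeq2 called none of these. DESeq2 called 3 higher (Hoxa5, Hoxb9 and Hoxc5) and 6 lower (Hoxa9, Hoxa10, Hoxc9, Hoxc10, Hoxd4 and Hoxd9), and limma on log2(TPM + 0.1) called 2 higher and 8 lower. The 6 lower genes of DESeq2 and, among the higher ones, Hoxb9 and Hoxc5 held under every setting tried, and the other 8 higher calls had log2 changes of 0.81 or less and were lost under at least 1 setting.

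**Figure D4:**
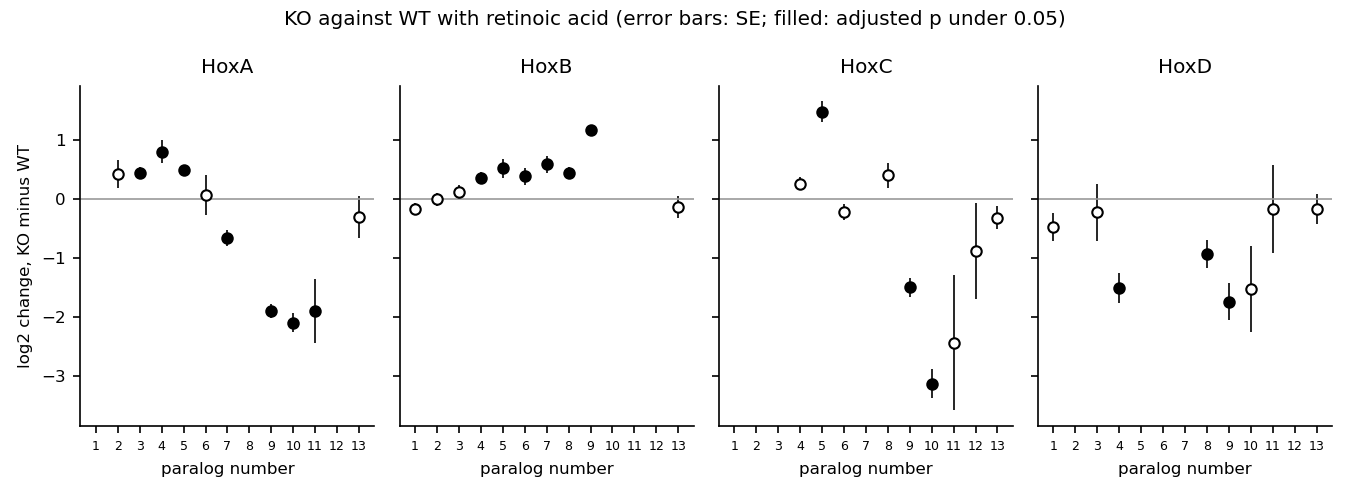
Log2 change between KO and WT cells with RA for 37 of the 38 tested Hox genes, by cluster and paralog number, with SE bars, and filled where the adjusted p was under 0.05. HoxA goes from positive changes at Hoxa3 to Hoxa5 to changes near -2 at Hoxa9 to Hoxa11, HoxB is positive from Hoxb4 to Hoxb9, and Hoxc10 has the most negative change at -3.12.

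In HoxA, the genes from Hoxa3 to Hoxa5 were higher in KO, Hoxa6 did not pass, and the genes from Hoxa7 to Hoxa11 were lower. Hoxa5 was at 76.3 and 72.7 TPM in KO RA libraries, above the 54.3 and 48.9 TPM of WT, a log2 change of 0.49 ± 0.08 (adjusted p = 7.6e-06). Hoxa3 was at 24.4 and 22.1 TPM in KO (log2 change 0.45 ± 0.10), and Hoxa4 at 12.91 and 12.87 TPM (0.81 ± 0.20). Further along, Hoxa7 was at 8.57 and 9.05 TPM in KO against 14.65 and 11.96 TPM, a log2 change of -0.65 ± 0.14. Hoxa9 was at 16.55 and 14.2 TPM in KO against 57.8 and 46.9 TPM, a log2 change of -1.89 ± 0.12 (adjusted p = 1.5e-12). Hoxa10 was at 5.00 and 3.66 TPM in KO against 20.9 and 18.1 TPM, a log2 change of -2.09 ± 0.16 (adjusted p = 5.2e-11). Hoxa11 was at 0.24 and 0.25 TPM in KO, with a log2 change of -1.89 ± 0.54, and was lost when WT RA replicate 1 or either KO RA replicate was left out. As sums, the HoxA genes up to Hoxa7 gave 200.8 and 183.9 TPM in WT and 233.25 and 228.1 TPM in KO, and the 4 from Hoxa9 to Hoxa13 gave 82.0 and 67.9 TPM in WT and 23.55 and 19.6 TPM in KO, while the whole cluster had a ratio of 0.94.

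HoxB showed the central rise and no fall at its posterior end. Hoxb4 was at 39.6 and 38.4 TPM in KO (log2 change 0.37 ± 0.09), Hoxb7 at 23.4 and 22.9 TPM (0.59 ± 0.15) and Hoxb8 at 32.1 and 29.4 TPM (0.45 ± 0.10). Hoxb5 was at 9.98 and 10.8 TPM in KO (0.52 ± 0.16), and Hoxb6 at 13.98 and 15.3 TPM (0.39 ± 0.14). These 5 genes had folds of 1.29 to 1.51 and were not called by DESeq2. Hoxb9 was at 55.5 and 54.8 TPM in KO against 25.3 and 23.9 TPM, a log2 change of 1.18 ± 0.07 (adjusted p = 2.3e-13). Hoxb13 and the anterior genes Hoxb1, Hoxb2 and Hoxb3 had log2 changes between -0.17 and 0.12 and did not pass.

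In HoxC, Hoxc5 was at 8.03 and 7.28 TPM in KO against 3.90 and 2.96 TPM in WT, a log2 change of 1.48 ± 0.18 (adjusted p = 1.2e-07). Hoxc10 had the largest fall of all members, to 0.87 and 0.70 TPM in KO from 6.93 and 6.55 TPM, a log2 change of -3.12 ± 0.25 (adjusted p = 3.7e-11). Exons of Hoxc5 share 5.4% and those of Hoxc10 8.7% of their bases on the same strand with each other's gene model, and these 2 genes moved in opposite directions. Hoxc9 was at 3.56 and 3.73 TPM in KO against 10.9 and 9.02 TPM, a log2 change of -1.49 ± 0.16. Hoxc4 was at 18.6 and 17.8 TPM in KO, Hoxc6 at 15.8 and 12.4 TPM and Hoxc8 at 7.02 and 6.53 TPM, and these 3 did not pass. Hoxc11, Hoxc12 and Hoxc13 did not pass either, at 0 and 0.05 TPM, 0.30 and 0.22 TPM, and 2.54 and 2.73 TPM in KO. In HoxD, Hoxd4 was at 2.74 and 2.58 TPM in KO (log2 change -1.51 ± 0.26), Hoxd8 at 2.16 and 2.20 TPM (-0.92 ± 0.24) and Hoxd9 at 1.03 and 0.95 TPM (-1.73 ± 0.31). The 5 other tested HoxD genes had negative log2 changes from -1.52 to -0.16 and did not pass.

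Paralog group 9, with the homeoboxes of Hoxb9 and Hoxc9 printed above, shows how the clusters differed. With RA, Hoxa9, Hoxc9 and Hoxd9 were 3.71-fold, 2.81-fold and 3.33-fold lower in KO than in WT cells, and Hoxb9 was 2.27-fold higher. In WT cells with RA the order was Hoxa9, Hoxb9, Hoxc9 and Hoxd9, and in KO cells Hoxb9 lay above Hoxa9 in both libraries. In paralog group 10, Hoxa10 and Hoxc10 were called lower and Hoxd10, at 0.05 and 0.40 TPM in KO against 0.71 and 0.53 TPM in WT, did not pass. In group 5, all 3 genes were called higher, and in group 4, Hoxa4 and Hoxb4 were higher, Hoxd4 was lower and Hoxc4 did not pass. In groups 2, 12 and 13, none of the tested members was called by edgeR or DESeq2 or had an unadjusted p under 0.05 by edgeR.

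**Figure D5:**
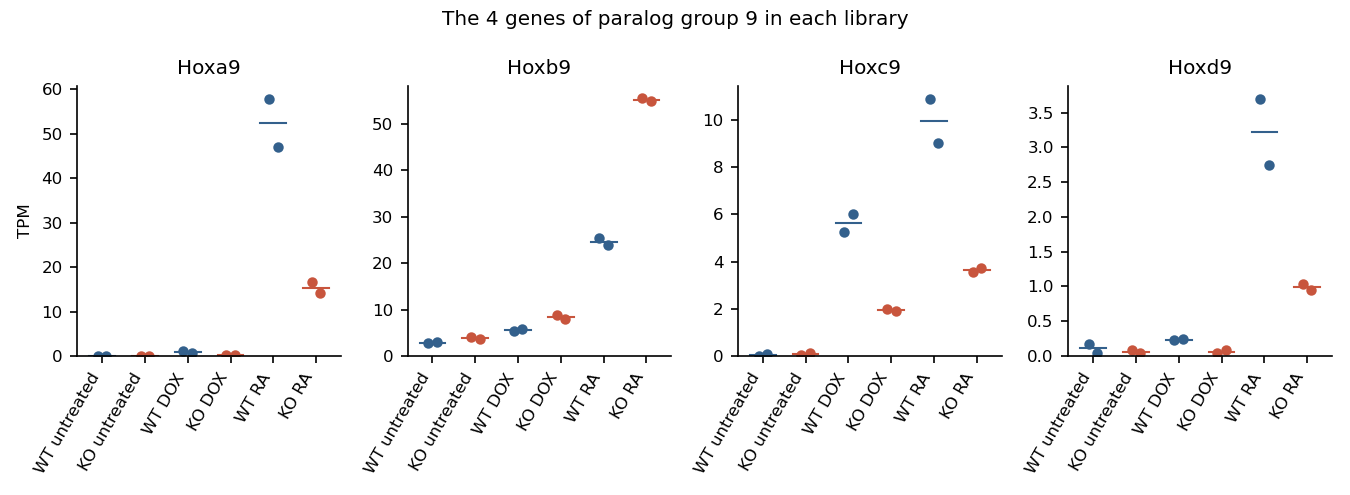
TPM of the 4 genes of paralog group 9 in each library (points) with group means (lines), WT in blue and KO in red, on a separate axis for each gene. With RA the KO libraries lie below the WT libraries for Hoxa9, Hoxc9 and Hoxd9 and above them for Hoxb9 (55.5 and 54.8 against 25.3 and 23.9 TPM).

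Whether the response to a treatment itself differed between the lines was tested as an interaction. For DOX, 0 members were called higher (background 9.11%) and 0 lower (10.0%) by edgeR, with 5 higher and 3 lower at an unadjusted p under 0.05, and 0 calls by DESeq2. Limma called 2 on log2(TPM + 1) and 3 on log2(TPM + 0.1). The nearest in HoxC were Hoxc9, with a difference of -2.85 ± 1.08 (adjusted p = 0.065), and Hoxc6, with -3.45 ± 1.33 (adjusted p = 0.078), both measured against few untreated counts over 2 libraries (2 in WT and 5 in KO for Hoxc9, 1 and 3 for Hoxc6). For RA, 3 members had a larger rise in KO (background 7.31%), namely Hoxa5, Hoxb9 and Hoxc4, and 0 a smaller one (10.3%), with 1 at an unadjusted p under 0.05 and 0 by DESeq2. Limma called 8 smaller on log2(TPM + 1) and 3 on log2(TPM + 0.1). Hoxb9 had a difference of 0.79 ± 0.16 (adjusted p = 0.00074) and Hoxc4 of 2.13 ± 0.48 (adjusted p = 0.0020). Hoxa9 and Hoxa10, which were lower in KO with RA, each had 1 untreated count in WT and 0 in KO over both libraries. Their differences had SEs of 0.81 and 0.54, which can be too small at such counts. The test could not decide whether their response differed.

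The genes that act on Hox clusters or beside their products moved as follows, where the shares of all tested genes called higher and lower in KO were 18.8% and 20.0% with RA and 17.9% and 19.1% with DOX. The 3 Cdx genes encode homeobox factors known to activate central and posterior Hox genes. Cdx1 was at 79.2 ± 3.2 TPM in WT and 12.8 ± 1.3 TPM in KO with RA (SD, n = 2), a log2 change of -2.67 ± 0.12 (edgeR adjusted p = 5.0e-13). Cdx2, also the trophectoderm regulator, was at 76.7 ± 3.2 TPM in WT and 10.2 ± 0.8 TPM in KO with DOX, and at 10.9 ± 2.0 and 4.02 ± 0.26 TPM with RA. Called lower in KO were 3 of 3 Cdx genes with RA and 2 of 3 with DOX. Their part in the Hox differences was not tested.

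Of 15 retinoic acid receptors, binding proteins and targets, 12 rose and 2 fell with RA in WT (41.0% and 32.9% of all tested genes), and 12 rose and 1 fell in KO cells (40.9% and 34.6%). Between the lines with RA, 6 were higher and 5 lower in KO (18.8% and 20.0% of all tested genes), with a median log2 change of 0.13. Among the 6 higher, the binding protein genes Crabp1 and Crabp2 had the largest log2 changes, 1.83 ± 0.07 and 1.13 ± 0.06. Crabp1 was at 50.0 ± 1.8 TPM in WT and 184 ± 3 TPM in KO with RA, and Crabp2 at 165 ± 2 and 373 ± 28 TPM. Cyp26a1, which encodes an enzyme that breaks down retinoic acid, was at 136 ± 12 TPM in WT and 217 ± 15 TPM in KO with RA. The receptor gene Rarb was at 20.3 ± 3.5 and 28.6 ± 0.7 TPM. Among the 5 lower in KO, Dhrs3 was at 76.1 ± 9.1 and 44.7 ± 0.5 TPM and Stra6 at 43.0 ± 5.8 and 30.9 ± 3.6 TPM. Of 9 TALE genes, whose proteins bind DNA together with Hox proteins, 5 were higher and 1 lower in KO with RA. Meis1 was at 51.6 ± 4.2 TPM in WT and 69.5 ± 1.0 TPM in KO. Of 13 Polycomb subunit genes, 7 were lower in KO with RA, and of 8 trithorax and MLL subunit genes, 4 were lower and 1 higher, beside 20.0% lower and 18.8% higher of all tested genes. Mtf2, which encodes a recruiter of Polycomb complex PRC2, was at 205 ± 13 TPM in WT and 130 ± 11 TPM in KO.

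Noncoding RNAs of the clusters followed the coding genes with RA. Of 7 tested, 7 rose in WT and 6 in KO cells, and between the lines 2 were higher and 4 lower in KO with RA, beside 18.8% and 20.0% of all tested genes. Hotairm1 was at 164 ± 35 TPM in WT and 205 ± 21 TPM in KO with RA. Hoxa11os, which lies antisense to Hoxa11, was at 2.27 ± 0.77 and 0.28 ± 0.04 TPM. Hoxb5os went against its cluster, at 114 ± 0.2 TPM in WT and 75.55 ± 0.7 TPM in KO, a log2 change of -0.65 ± 0.11. The strand setting of the counting is not given in the sources used here, and exons of Hoxa11 (35.0% of bases), Hoxb3 (52.9%), Hoxb2 (27.3%), Hoxa3 (25.4%) and Hoxa7 (20.4%) overlap genes on the other strand, so reads of such pairs cannot be told apart.

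Promoters were compared for the 22 members with a RefSeq promoter entry (24 sequences, build GRCm38.p6), each 250 bases upstream and 50 downstream of the start. Those of 3 genes are shown because these genes moved differently between KO and WT with RA: Hoxa5 and Hoxb8 were higher and Hoxd4 was lower. The 250 bases upstream are printed on the gene's strand, and capitals mark matches to TTTATNG, a CDX site, or TATAAA, the TATA box, on either strand, which can overlap.
Hoxa5, chr6:52204588-52204837, minus strand: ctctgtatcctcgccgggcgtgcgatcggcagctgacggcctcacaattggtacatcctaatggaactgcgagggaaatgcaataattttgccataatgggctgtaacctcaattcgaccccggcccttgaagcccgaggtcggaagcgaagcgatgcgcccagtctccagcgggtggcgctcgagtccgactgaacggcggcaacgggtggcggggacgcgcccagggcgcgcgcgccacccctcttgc
Hoxb8, chr11:96281655-96281904, plus strand: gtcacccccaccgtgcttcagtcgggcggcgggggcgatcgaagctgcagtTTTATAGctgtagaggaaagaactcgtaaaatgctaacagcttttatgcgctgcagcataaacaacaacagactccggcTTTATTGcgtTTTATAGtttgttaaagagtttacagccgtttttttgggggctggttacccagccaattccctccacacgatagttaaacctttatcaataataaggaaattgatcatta
Hoxd4, chr2:74721728-74721977, plus strand: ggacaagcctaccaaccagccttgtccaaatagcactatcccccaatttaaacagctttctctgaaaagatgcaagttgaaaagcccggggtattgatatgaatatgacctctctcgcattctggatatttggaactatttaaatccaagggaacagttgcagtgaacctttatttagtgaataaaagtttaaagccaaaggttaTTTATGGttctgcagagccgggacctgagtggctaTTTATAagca
The upstream 250 bases held 28 CpG in Hoxa5, 12 in Hoxb8 and 3 in Hoxd4. Over the full windows, the 24 Hox promoters had a median of 14.5 CpG against 7.0 in 32851 promoters. TTTATNG was found in 8.3% of the Hox promoters (Hoxb8 and Hoxd4) and 10.91% of all, TATAAA in 16.7% and 13.62%, and the PBX-HOX site TGATTNAT in 8.3% (Hoxa2 and Hoxd11) and 3.22%. A pair of retinoic acid half-sites in the same direction on either strand, each spelled AGGTCA or, as accepted variants, GGTTCA or else AGTTCA, 5 bases apart was found in 0 of the 24 and in 0.06% of all promoters, and 2 bases apart in 0 and 0.21%. These counts describe the letters of the windows only.

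Some sums of cell type markers also differed between the lines with RA. The 6 primitive endoderm markers summed to 226 to 257 TPM in WT and 523 to 553 TPM in KO libraries. Most of the KO sum was Dab2, at 111 ± 13 TPM in WT and 327 ± 10 TPM in KO. All 6 were called higher in KO, beside 18.8% of all tested genes. The 6 pluripotent stem cell markers summed to 4683 to 5165 and 3583 to 3596 TPM, and the 6 neural markers to 18.8 to 20.4 and 25.6 to 25.8 TPM. Of 4 tested neural markers, 1 was called higher in KO and 0 lower, beside 18.8% and 20.0% of all tested genes. This was Pax6, at 5.65 ± 0.69 TPM in WT and 10.25 ± 0.59 TPM in KO. The 6 primitive streak and mesoderm markers overlapped between the lines, at 8.73 to 9.73 and 9.49 to 10.3 TPM. Of 4 tested there, 1 was called higher and 1 lower. All markers of these lists had reads in both RA groups. The neural sum was 65.35 to 77.2 TPM in untreated cells, most of it from the tubulin gene Tubb3, while 3 of the 4 tested neural markers were called higher and 1 lower with RA in WT, and 2 higher and 1 lower in KO. Nanog, a pluripotency factor, was at 362 ± 13 TPM in WT and 66.1 ± 2.1 TPM in KO with RA, and Pou5f1 at 1521 ± 104 and 1497 ± 6 TPM. The fibroblast markers, which belong to a cell type with many active Hox genes, summed to 46.5 to 51.7 TPM in WT and 39.6 to 42.8 TPM in KO. Most of this sum was Thy1, at 17.6 ± 1.1 TPM in WT and 8.17 ± 0.57 TPM in KO, and Prrx2, at 18.6 ± 1.9 and 20.6 ± 3.2 TPM. Of 9 tested fibroblast markers, 4 were called lower in KO and 1 higher, namely Col1a2. The sum is thus no measure of fibroblast content. The part of these differences in the Hox changes was not tested.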

How the data were processed

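RNA was measured by RNA-seq in 12 libraries, 2 in each of 6 groups. The submitters' processing notes name STAR 2.5.3a, RSEM 1.3.0, DESeq2 1.18.1 and mm10, while neither the gene annotation nor the strandedness of counting was stated in the sources at hand. The deposited values, per the file headers, were expected counts, TPM and effective lengths of each gene. Between 9.54% and 11.55% of genes per library had an expected count that was not whole. Counts were rounded and tested in R 4.3.3 with edgeR 4.0.16 (TMM scaling, filter by group with a minimum count of 10, quasi-likelihood fit over all 12 libraries, 6 residual degrees of freedom, 11 contrasts, adjustment over 17884 genes, threshold 0.05), after the script was tested on simulated data. SEs of genes near 0 can be too small. Depth of 15799517 to 21441996 counts gives a floor of 3 counts per library, and intervals (95%, exact) and floors cover counting error only. Comparisons with untreated cells share those libraries. Positions were matched by identifier to GENCODE M21 (53274 of 53379), and promoters came from RefSeq.

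The members and lists were chosen with earlier results of these data known. Members were named with their values, except 1 that is not reported here and enters counts and sums only. Library values were given for members that reached a mean of 1 TPM in some group and were called, with runs of low values as ranges, and for others ranges and counts. The lists were Cdx genes, retinoic acid genes, TALE genes, Polycomb and trithorax subunits, cluster noncoding RNAs, the 2 Evx genes (neither passed the filter) and cell type markers. Alternatives were DESeq2 1.42.0, limma 3.58.1 on log2(TPM + 1) and log2(TPM + 0.1), other scaling factors, other filters, effective-length offsets, the compared groups only, a replicate block, summed CPM and leaving out each library.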

Additional observations from a re-analysis of the deposited data

Results flagged for a closer look

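For 3 of 38 tested members the response to RA was larger in KO than in WT cells by edgeR's interaction test, and for 0 it was smaller. Over all tested genes the shares were 7.31% and 10.3%, so the number of larger responses is near that of any genes. Hoxa5 had a difference of 5.262 on the log2 scale (adjusted p = 0.014), which rests on 0 counts in both untreated KO libraries, and its call was lost under at least 1 other setting. Hoxb9 had a difference of 0.785 (adjusted p = 0.00074) and Hoxc4 of 2.131 (adjusted p = 0.0020), and both calls held under every setting tried. Hoxb9 was called higher in KO than in WT in untreated, DOX and RA libraries. Its DOX and RA calls held under every setting tried, but its untreated call was lost under other settings, among them DESeq2. Hoxc4 was lower in untreated KO libraries and did not pass between the lines with RA.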

How the results depend on the processing

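Of 217 calls of single Hox genes over the 11 contrasts, 173 held under every alternative that gave a value, 44 were lost under at least 1, and 0 changed direction. Counts of Hox calls moved by over 1.5 times as follows. For DOX in KO, fitting only the groups compared gave 10 (10 members tested) in place of 21. For KO against WT untreated, 4 calls became 2 by DESeq2, 1 with only the groups compared, 2 with effective-length offsets and 2 by limma on log2(TPM + 1), and 1 to 4 when a library was left out. For KO against WT with RA, 19 calls became 9 by DESeq2, which gave 32 members an adjusted p, and 10 by limma on log2(TPM + 0.1). For the difference in DOX response, 0 calls became 2 and 3 by limma with pseudocounts of 1 and 0.1, and 0 to 1 when a library was left out. For the difference in RA response, 3 calls became 5 with only the groups compared and 14 and 6 by limma with these pseudocounts. The causes were not tested, apart from the smaller number of members tested.

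In summed CPM in place of TPM, HoxA was at 6.301 in WT and 4.557 in KO untreated, 22.782 and 24.016 with DOX and 272.3 and 257.271 with RA. HoxB was at 5.962 and 7.532 untreated, 12.521 and 17.039 with DOX and 194.561 and 261.601 with RA. HoxC was at 3.65 and 2.516 untreated and 39.745 and 17.35 with DOX, and HoxD at 1.117 and 0.871 untreated and 1.379 and 1.009 with DOX. CPM is not per length, and here it carries the TMM scaling that TPM lacks. The 2 measures did not shift alike between treatments. In WT, HoxA was at 4.115 TPM and 6.301 CPM untreated, and at 267.335 TPM and 272.3 CPM with RA. Its rise with RA was thus larger in TPM than in CPM. In KO with RA, HoxA was above HoxB in mean TPM and below it in CPM. Replicate numbers did not pair the libraries: over 15 pairs the correlation of deviations was -0.112 to 0.076. With the replicate block, 216 of 217 calls held, with 19 calls between KO and WT with RA. Upper-quartile scaling moved the median of all genes to 0.192 and 0.152 for RA against DOX, 0.143 and 0.138 for RA against untreated, and -0.113 for DOX in WT.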
